A study of Mus musculus with 3 samples.

Results

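The 10 genes described here belong to the integrated stress response of mouse ES cells: *Atf3*, *Atf4*, *Ddit3*, *Ddit4*, *Trib3*, *Chac1*, *Asns*, *Ppp1r15a*, *Vldlr* and *Psat1*. They were chosen by name among 35019 genes on the array and are represented by 13 probes. The list was built around *Atf3*, selected on its higher signal after deletion of *Nr0b1*, and the other 9 genes were added as its pathway. The levels of *Atf3* against the floxed cells are therefore a description, and no test is given for them. All 10 genes were among the 22443 genes that were bright enough to be tested.

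RNA of 3 groups of male ES cells was measured on 9 single-colour arrays, 3 for each group. *Nr0b1*, also called *Dax1*, encodes an orphan nuclear receptor that acts mostly as a co-repressor. The cells came from EB5, a line derived from E14tg2a, and carry *loxP* sites around exon 2 of their single X-linked copy (genotype Dax1 flox/Y). Cells of all groups carry *MerCreMer* and *Egfp* on piggyBac vectors, with Cre under the ubiquitous CAG promoter and active only with 4-hydroxy tamoxifen (Tx). The −Tx group was floxed and untreated, the +Tx group came 4 days after Tx was first given (labelled Dax1 flox/Y + Cre 4days), and the KO/Y group had been kept in culture after the deletion (Dax1 KO/Y). Tx itself and the first days of deletion cannot be told apart, because the −Tx group did not receive Tx. The study worked with more than 1 independent pair of floxed and KO/Y lines, and which of them the arrays came from is not given in the sources used here. The study set −Tx against +Tx for the primary effect of the loss, and +Tx against KO/Y for the later adaptation.

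In the integrated stress response, kinases that sense amino acid shortage, misfolded protein, double-stranded RNA or haem deficiency phosphorylate the translation factor eIF2. General translation then falls, while the mRNA of the transcription factor ATF4 is translated more. ATF4, with partners such as ATF3, CHOP (*Ddit3*) and C/EBP proteins, switches on genes for amino acid synthesis and uptake, tRNA charging and redox balance, and in prolonged stress genes for cell death. Much of the control of ATF4 lies in translation, which arrays do not read. In ES cells, rapid growth places a high demand on the same supply of amino acids and charged tRNA.

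ATF4 binds with C/EBP partners to elements with the core TGATGNAA, and ATF and CREB proteins bind the cyclic AMP response element TGACGTCA. Both were searched on both strands of RefSeq promoter windows (GRCm38.p6) that run from 250 bases before the transcription start to 50 after it. All 10 genes had at least 1 window, and there were 12 windows in all. TGATGNAA was in 5 of these 12 windows, 1 each of *Atf3*, *Trib3*, *Chac1*, *Asns* and *Vldlr*, and in 3.97% of all 32851 windows. TGACGTCA was in 1 of the 12, that of *Ppp1r15a*, and in 1.79% of all windows, and no window of the 10 genes held both motifs. The letters were not found in the windows of *Atf4*, *Ddit3*, *Ddit4* and *Psat1*. The stretches around the matches are shown because the genes that share the core did not share a direction against −Tx. In KO/Y over +Tx their measured log2 fold changes were all positive, from 0.19 in *Chac1* to 1.16 in *Atf3*. *Chac1* and *Vldlr* did not pass there in limma (adjusted p = 0.118 and 0.214). That direction was not particular to the core. Members without it measured 0.56 (*Ddit4*), 0.41 (*Psat1*), 0.26 (*Ddit3*), 0 (*Atf4*) and -0.21 (*Ppp1r15a*). The stretches read in the direction of the gene, with the motif or its reverse complement in capitals.
Atf3, chr1:191183396-191183483, minus strand: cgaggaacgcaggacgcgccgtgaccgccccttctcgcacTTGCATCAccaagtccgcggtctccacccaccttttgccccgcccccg
Chac1, chr2:119351009-119351096, plus strand: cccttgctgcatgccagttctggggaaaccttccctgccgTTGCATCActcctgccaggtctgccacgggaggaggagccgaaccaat
Trib3, chr2:152344028-152344057, minus strand: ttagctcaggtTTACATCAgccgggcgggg
Asns, chr6:7693210-7693272, minus strand: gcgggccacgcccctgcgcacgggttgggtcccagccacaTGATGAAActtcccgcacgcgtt
Vldlr, chr19:27216780-27216867, plus strand: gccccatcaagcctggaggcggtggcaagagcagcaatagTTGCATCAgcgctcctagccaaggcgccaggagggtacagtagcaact
Ppp1r15a, chr7:45526269-45526320, minus strand: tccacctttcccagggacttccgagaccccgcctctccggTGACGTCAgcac
The first base of the match lay 110 bases before the start in *Atf3*, 193 in *Chac1*, 23 in *Asns* and 12 in *Ppp1r15a*. In *Vldlr* it lay 200 bases before the second of 2 annotated starts, and in *Trib3* at position 15 of the transcript. A match describes the letters and does not show that a factor is bound there.

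Levels below are log2 processed signals minus the 75th percentile of each array, so that 0 is that percentile, and levels of different genes are not compared. Signals came from bulk RNA, in which fewer cells of a type and less RNA per cell cannot be told apart. *Nr0b1* itself lay at 4.02 to 4.18 in −Tx, -2.66 to -2.42 in +Tx and -6.37 to -6.20 in KO/Y, in the order of the labels. Between 51.8% and 58.4% of the 55681 probes of an array were well above background, and arrays of the same group correlated at 0.994 or more. All 6 markers of ES cells were detected on every array, and their levels are given with those of other cells below. Slide 1 held the 3 −Tx arrays and +Tx array 1, and slide 2 held the other +Tx arrays and the 3 KO/Y arrays, so −Tx and KO/Y shared no slide. Each difference was therefore also fitted with the slide as a block. That fit takes +Tx over −Tx from slide 1, which held a single +Tx array, and KO/Y over −Tx through the same array, so its errors assume that this array varied like the others, and a call lost there is no measure of a smaller change.

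*Atf3*, a stress-induced repressor and activator of the ATF/CREB family, was not well above background on any −Tx array and was well above it on every +Tx and KO/Y array. Its level was -3.82, -4.43 and -4.04 in −Tx, -2.38, -2.42 and -2.68 in +Tx, and -1.28, -1.35 and -1.39 in KO/Y. The 3 groups did not overlap and lay in that order. Set against the dimmest detected signal of each −Tx array, or its own if brighter, *Atf3* was 2.94-fold higher in +Tx and 6.55-fold in KO/Y. Those dimmest signals were -4.29 to -3.98, and *Atf3* at -3.82 on −Tx array 1 still did not count as detected. The folds are therefore approximate and no strict minimum. The choice of genes did not name the difference between the deleted groups, but it used levels of *Atf3* on the same arrays. KO/Y exceeded +Tx by 1.16 ± 0.148 (log2 fold change ± SE, 2.23-fold), with an adjusted p of 0.000811 in limma over all genes. Within slide 2 alone this difference was 1.21, with an adjusted p of 0.00229. With normexp background correction, which adds an offset of 50 to every signal and matters most for dim ones, it was 0.71 (1.64-fold). The measured differences from −Tx were then 1.42-fold in +Tx and 2.33-fold in KO/Y, below the folds above. The probe lies at mm9 chr1:192994547-192994606 on the minus strand, at base 1545 of the transcript.

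**Figure D1:**
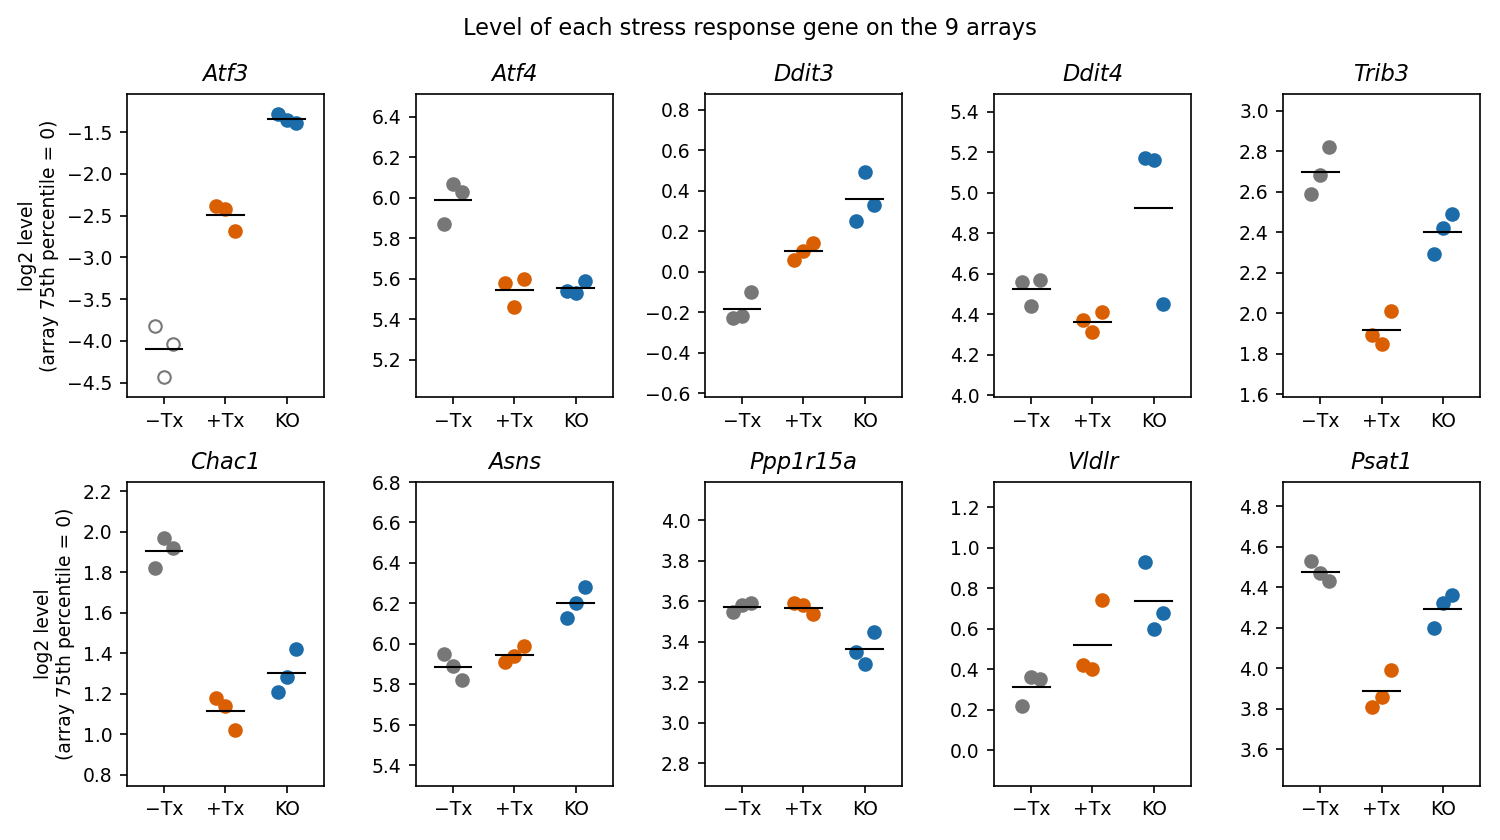
Level of each of the 10 stress response genes on the 9 arrays (log2 processed signal, 75th percentile of each array at 0; 1 point per array, bars show group means, each panel has its own axis; KO is KO/Y; open points, an array with the probe too dim to count as detected). *Atf3* climbs from −Tx to KO/Y, *Trib3*, *Chac1* and *Psat1* are lowest in +Tx, and KO/Y array 3 stands apart for *Ddit4*.

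The 3 comparisons differed widely in how many of all genes passed the test (adjusted p under 0.05). In +Tx over −Tx, 11.9% of genes were higher and 14.7% lower, in KO/Y over −Tx 20.5% and 26.4%, and in KO/Y over +Tx 12.1% and 14.1%. With the further limit of over 2-fold that the study used, the shares of genes were 1.75% higher and 0.762% lower in +Tx over −Tx, 4.72% and 2.84% in KO/Y over −Tx, and 2.37% and 1.05% in KO/Y over +Tx. Of the 9 members other than *Atf3*, 1 was higher and 4 were lower in +Tx over −Tx, 3 were higher and 4 lower in KO/Y over −Tx, and 5 were higher and 1 lower in KO/Y over +Tx. The median of the 9 log2 fold changes was -0.16, -0.18 and 0.26 in turn, and that of all genes tested -0.064, -0.063 and 0.008. Every one of these changes was smaller than 2-fold. *Atf3* passed that limit in KO/Y over +Tx, though not with normexp (1.64-fold). It was chosen on its signal on these arrays and the other 9 were not, so their sizes are no fair contrast. In the fit with the slide as a block, the members other than *Atf3* that passed were *Trib3*, *Chac1* and *Psat1* in +Tx over −Tx, *Chac1* in KO/Y over −Tx, and *Trib3* and *Psat1* in KO/Y over +Tx.

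**Figure D2:**
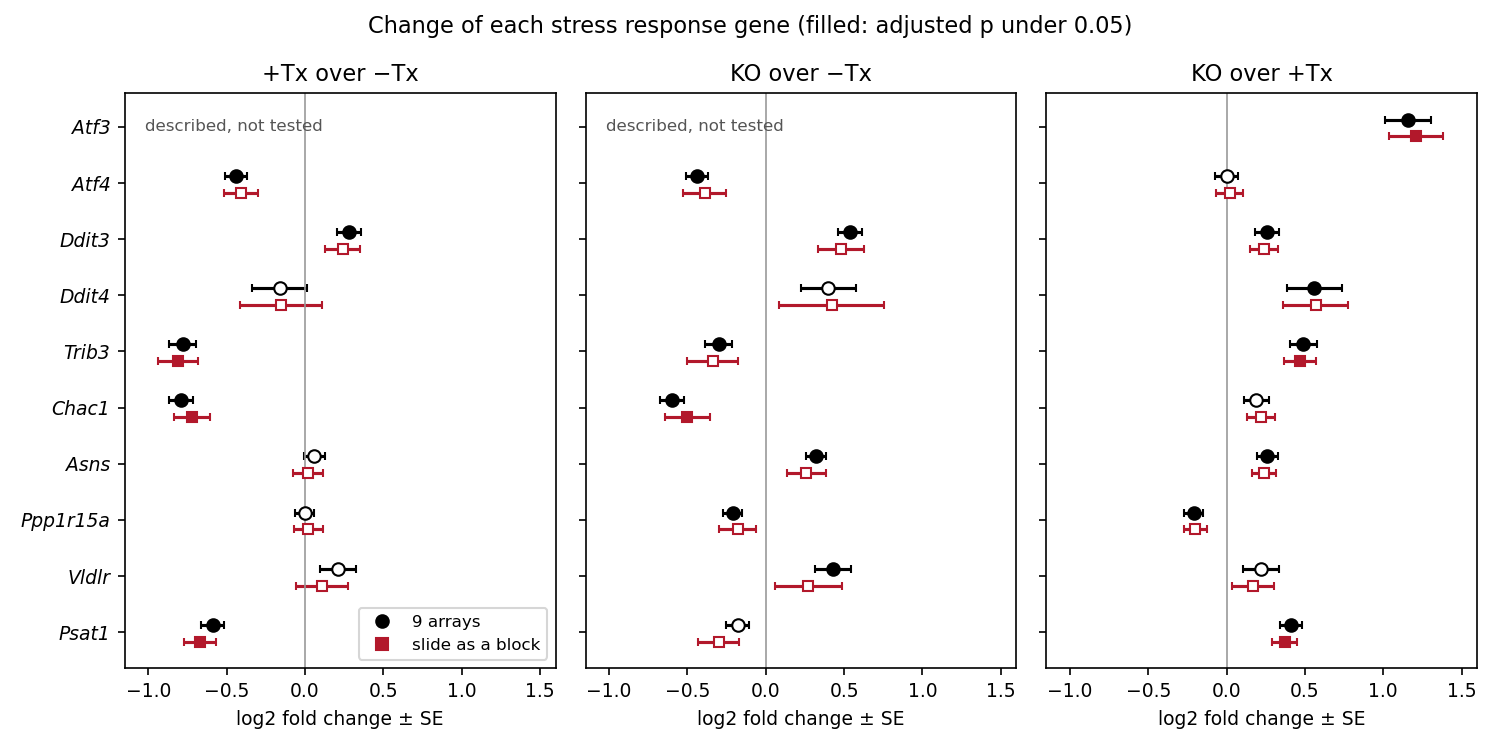
Change of each gene in the 3 comparisons (log2 fold change ± SE; KO is KO/Y; black circles, fit of 9 arrays; red squares, the same with slide as a block; filled symbols, adjusted p under 0.05). *Trib3*, *Chac1* and *Psat1* lie between -0.59 and -0.79 in +Tx over −Tx in the fit of 9 arrays. *Atf3*, which was chosen on its signal on these arrays, stands at 1.16 in KO/Y over +Tx.

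*Atf4*, the central transcription factor of the response, was lower in both deleted groups. Its level was 5.87, 6.07 and 6.03 in −Tx, 5.58, 5.46 and 5.6 in +Tx, and 5.54, 5.53 and 5.59 in KO/Y, and every deleted array lay below every −Tx array. The fall was 0.44 ± 0.0724 on the log2 scale in either comparison with −Tx (1.36-fold lower, adjusted p = 0.00321 in +Tx and 0.0012 in KO/Y). A dimmer probe of *Atf4*, at base 504 of the transcript, fell by 0.32 and 0.27 (adjusted p = 0.0218 and 0.0262). With slide as a block the falls of the brighter probe were 0.41 and 0.39, with adjusted p of 0.0563 and 0.0876. The deleted groups overlapped, and KO/Y minus +Tx was 0.00 ± 0.0724 (adjusted p = 0.969).

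*Ddit3*, which encodes CHOP, a partner of ATF4 with a part in stress-induced cell death, went the other way. It read -0.23, -0.22 and -0.10 in −Tx, 0.06, 0.10 and 0.14 in +Tx, and 0.25, 0.49 and 0.33 in KO/Y. The 3 groups were ordered without overlap, as for *Atf3*. The rise over −Tx was 0.28 ± 0.0764 in +Tx (1.22-fold, adjusted p = 0.0266) and 0.54 ± 0.0764 in KO/Y (1.46-fold, adjusted p = 0.000505). The further step from +Tx to KO/Y was 0.26 (1.20-fold, adjusted p = 0.0381). With slide as a block the 3 values were 0.24, 0.48 and 0.24, with adjusted p of 0.227, 0.0533 and 0.109. The call in +Tx was lost without −Tx array 1 or 2 or +Tx array 2 or 3 (adjusted p = 0.0653 to 0.0901), and that of the last step without any 1 of 7 arrays, all but −Tx array 3 and KO/Y array 1 (adjusted p = 0.0522 to 0.109). The call in KO/Y over −Tx was lost in 0 of 9 such fits.

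The 3 members that fell most in +Tx are known targets of ATF4. *Vldlr*, also induced through ATF4, did not fall there, nor did *Asns* (measured changes of 0.21 and 0.06). *Trib3*, a pseudokinase that feeds back on ATF4 and AKT signalling, read 2.59, 2.68 and 2.82 in −Tx, 1.89, 1.85 and 2.01 in +Tx, and 2.29, 2.42 and 2.49 in KO/Y. Each KO/Y array lay between the other groups. It fell by 0.78 ± 0.0858 in +Tx (1.72-fold lower, adjusted p = 0.000458), and KO/Y was 0.49 ± 0.0858 above +Tx (adjusted p = 0.00406). KO/Y was 0.30 below −Tx (1.23-fold lower, adjusted p = 0.0206, and 0.188 with slide as a block), a call also lost without −Tx array 2 or 3 or KO/Y array 1 (adjusted p = 0.0521, 0.0765 and 0.0624). On slide 1 the single +Tx array was 0.81 below the mean of the −Tx arrays, and within slide 2 the rise of KO/Y over +Tx was 0.47 (adjusted p = 0.0426).

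*Psat1* encodes the aminotransferase of serine synthesis. Its level was 4.53, 4.47 and 4.43 in −Tx, 3.81, 3.86 and 3.99 in +Tx, and 4.20, 4.32 and 4.36 in KO/Y, again with KO/Y in the middle and no overlap. It fell by 0.59 ± 0.0721 in +Tx (1.51-fold lower, adjusted p = 0.000779) and was 0.41 ± 0.0721 higher in KO/Y than in +Tx (1.33-fold, adjusted p = 0.0041). KO/Y minus −Tx was -0.18 (adjusted p = 0.066, and 0.0449 without +Tx array 3). A second probe, at base 750 of the transcript instead of base 2226, gave -0.58 in +Tx over −Tx and 0.43 in KO/Y over +Tx (adjusted p = 0.00263 and 0.00805).

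*Chac1*, a glutathione-degrading enzyme induced in the response, was low in both deleted groups. It read 1.82, 1.97 and 1.92 in −Tx, 1.18, 1.14 and 1.02 in +Tx, and 1.21, 1.28 and 1.42 in KO/Y, and both deleted groups lay below −Tx without overlap. The fall was 0.79 ± 0.0782 in +Tx (1.73-fold lower, adjusted p = 0.000266) and 0.60 ± 0.0782 in KO/Y (1.52-fold lower, adjusted p = 0.000326). Both falls passed with slide as a block (0.72 and 0.50, adjusted p = 0.00924 and 0.0451). KO/Y minus +Tx was 0.19 (adjusted p = 0.118). *Chac1*, *Trib3* and *Atf3* thus share the core motif in the stretches shown above, and differ in the direction of their change against −Tx. The rise of *Atf3* there was part of the choice of genes. In KO/Y over +Tx the changes of *Trib3* (0.49) and *Atf3* (1.16) were positive, like that of *Chac1*. So were those of *Ddit3*, *Ddit4* and *Psat1*, whose windows lack the core.

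*Asns*, asparagine synthetase, and *Vldlr*, a lipoprotein receptor gene induced through ATF4, were higher in KO/Y. *Asns* read 5.95, 5.89 and 5.82 in −Tx, 5.91, 5.94 and 5.99 in +Tx, and 6.13, 6.20 and 6.28 in KO/Y. Its −Tx and +Tx levels overlapped (difference 0.06 ± 0.0652, adjusted p = 0.529), and KO/Y was 0.32 above −Tx (1.25-fold, adjusted p = 0.00387) and 0.26 above +Tx (1.20-fold, adjusted p = 0.0203). *Vldlr* read 0.22, 0.36 and 0.35 in −Tx, 0.42, 0.40 and 0.74 in +Tx, and 0.93, 0.60 and 0.68 in KO/Y. The rise in KO/Y over −Tx was 0.43 ± 0.117 (1.35-fold, adjusted p = 0.0156), and +Tx overlapped KO/Y. A dim second probe of *Vldlr*, well above background on 1 of 3 −Tx arrays, gave 0.86 ± 0.289 (adjusted p = 0.0384). In the fit with the slide as a block neither gene passed over −Tx (0.26 with an adjusted p of 0.18 for *Asns*, and 0.27 with 0.416 for *Vldlr*). *Asns* did not pass over +Tx without +Tx array 1 or 2 or KO/Y array 2 or 3 (adjusted p = 0.0515 to 0.0709), nor *Vldlr* over −Tx without −Tx array 1 (adjusted p = 0.0549).

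*Ppp1r15a* encodes GADD34, the stress-induced phosphatase subunit that reverses eIF2 phosphorylation. It read 3.55, 3.58 and 3.59 in −Tx, 3.59, 3.58 and 3.54 in +Tx, and 3.35, 3.29 and 3.45 in KO/Y. Levels in −Tx and +Tx overlapped, and every KO/Y array was below them. KO/Y was 0.21 ± 0.0606 below −Tx (1.16-fold lower, adjusted p = 0.0186) and 0.21 below +Tx (adjusted p = 0.035). Both calls were lost with slide as a block (-0.18 and -0.20, adjusted p = 0.325 and 0.0989). The first was also lost without −Tx array 2 or 3 or KO/Y array 2 (adjusted p = 0.0575, 0.0629 and 0.0611), and the second in 7 of 9 fits that left out 1 array, all but those without +Tx array 3 or KO/Y array 3 (adjusted p up to 0.105).

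*Ddit4* encodes REDD1, an inhibitor of mTORC1 signalling. It read 4.56, 4.44 and 4.57 in −Tx, 4.37, 4.31 and 4.41 in +Tx, and 5.17, 5.16 and 4.45 in KO/Y. KO/Y array 3 fell within the −Tx range, whereas the other KO/Y arrays were above all others. KO/Y over +Tx was 0.56 ± 0.175 (1.48-fold, adjusted p = 0.0449) and KO/Y over −Tx 0.40 ± 0.175 (adjusted p = 0.0927). Without KO/Y array 3 these were 0.80 and 0.64 (adjusted p = 0.000454 and 0.000432), and the call over +Tx was lost in the other 8 fits that left out 1 array (adjusted p up to 0.134).

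The rest of the pathway was read from 7 lists with 70 genes, of which 68 were tested. *Slc7a11*, the cystine carrier, and *Fgf21*, a secreted stress hormone, were too dim on the arrays to be tested. In +Tx over −Tx, 5 of the 68 genes passed as higher and 21 as lower, in KO/Y over −Tx 12 and 21, and in KO/Y over +Tx 17 and 6. These are 7.35% and 30.9%, 17.6% and 30.9%, and 25% and 8.82% of the genes, beside the shares of all genes given above. Median log2 fold changes were -0.14, -0.08 and 0.10. In the fit with the slide as a block, fewer of these genes passed as lower in +Tx over −Tx and in KO/Y over −Tx. Its standard errors were larger, for example 0.109 instead of 0.0724 for *Atf4* in +Tx over −Tx. The share of all genes that passed in that fit is not given here, so the loss is no result about these genes. Lost calls in +Tx over −Tx included *Lars*, whose change was -0.41 with the block and -0.33 without it (adjusted p = 0.0539 and 0.0143).

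**Figure D3:**
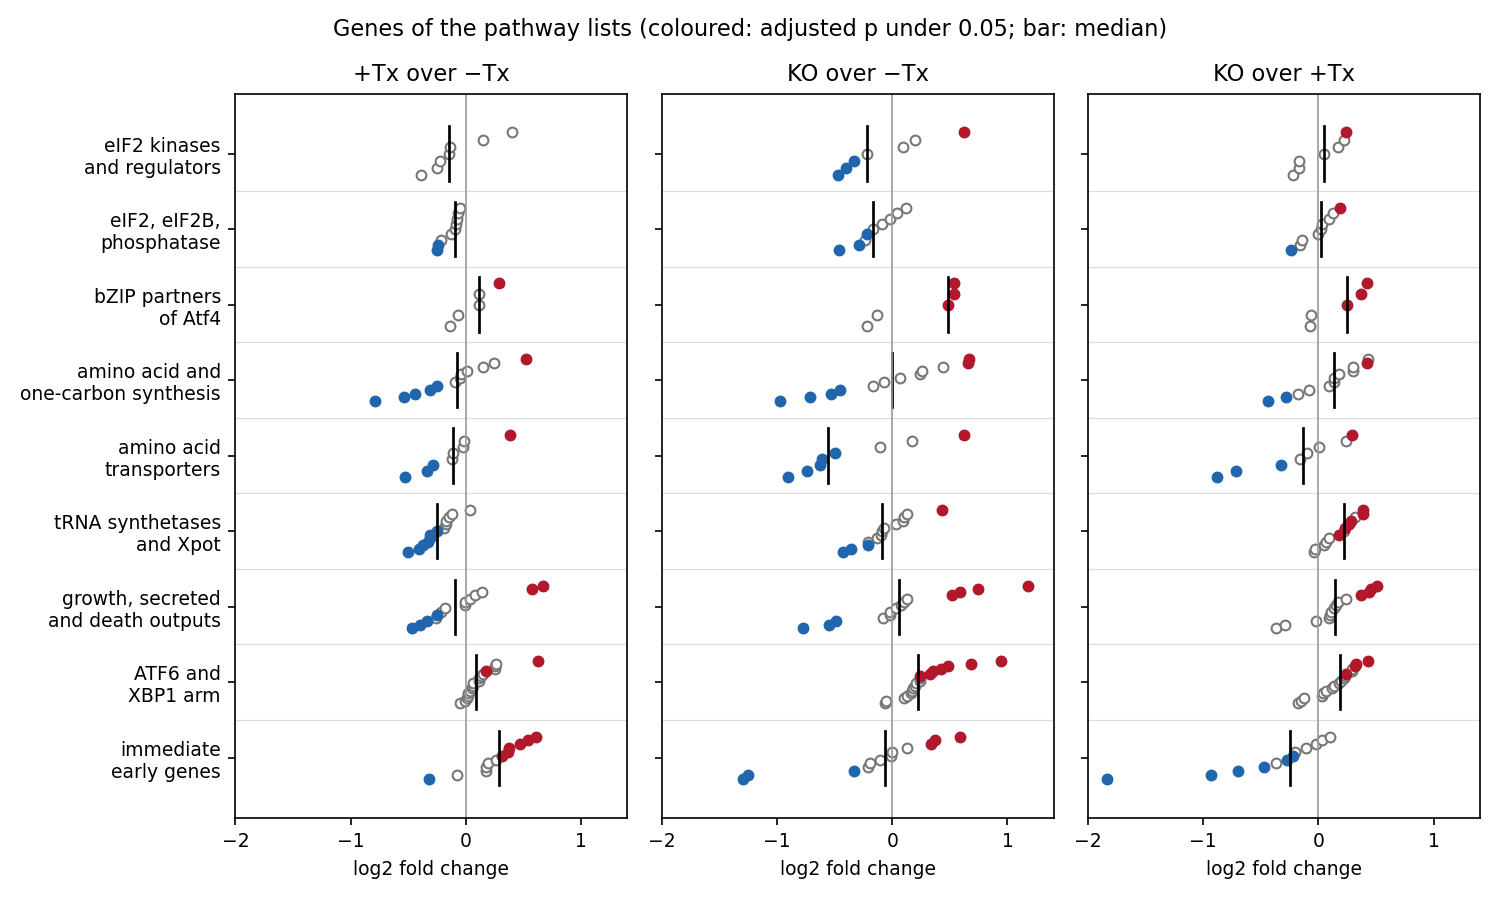
Log2 fold change of each tested gene in the 7 pathway lists, the ATF6 and XBP1 arm and the immediate early genes, by comparison (1 point per gene; red, higher and blue, lower at an adjusted p under 0.05; open, not passed; bar, median of the list). The tRNA synthetases have medians of -0.25 in +Tx over −Tx and 0.22 in KO/Y over +Tx.

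Genes that charge tRNA were among those lower in +Tx than in −Tx and higher in KO/Y than in +Tx. Of 12 such genes and *Xpot*, which exports tRNA from the nucleus, 7 were lower in +Tx over −Tx (53.8%, median -0.25). In KO/Y over −Tx 1 was higher and 3 were lower (7.69% and 23.1%, median -0.09). In KO/Y over +Tx 6 were higher (46.2%, median 0.22). Of all genes, 14.7% were lower in the first comparison, 20.5% higher and 26.4% lower in the second, and 12.1% higher in the third. *Sars*, the seryl-tRNA synthetase, read 5.0, 5.01 and 4.96 in −Tx, 4.53, 4.53 and 4.41 in +Tx, and 4.46, 4.61 and 4.60 in KO/Y, and its levels in KO/Y overlapped those in +Tx (fall of 0.50 ± 0.0659 in +Tx, 1.41-fold lower, adjusted p = 0.00114). *Cars*, for cysteine, read 4.47, 4.40 and 4.39 in −Tx, 3.95, 4.11 and 4.10 in +Tx, and 4.41, 4.49 and 4.45 in KO/Y. It was 0.37 lower in +Tx than in −Tx and 0.39 higher in KO/Y than in +Tx (adjusted p = 0.00486 and 0.00296), and KO/Y overlapped −Tx. *Mars1*, for methionine, changed by -0.41 and 0.28 in the same comparisons (adjusted p = 0.00235 and 0.0116), and *Lars*, for leucine, fell by 0.33 in +Tx (adjusted p = 0.0143). *Nars*, for asparagine, was the gene of this list that was higher in KO/Y over −Tx (0.43, adjusted p = 0.00141). *Tars*, for threonine, was 0.27 higher in KO/Y than in +Tx (adjusted p = 0.0217). The block for slide left 3 of the 13 that passed as lower in +Tx over −Tx and 3 that passed as higher in KO/Y over +Tx, with medians of -0.28 and 0.18.

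**Figure D4:**
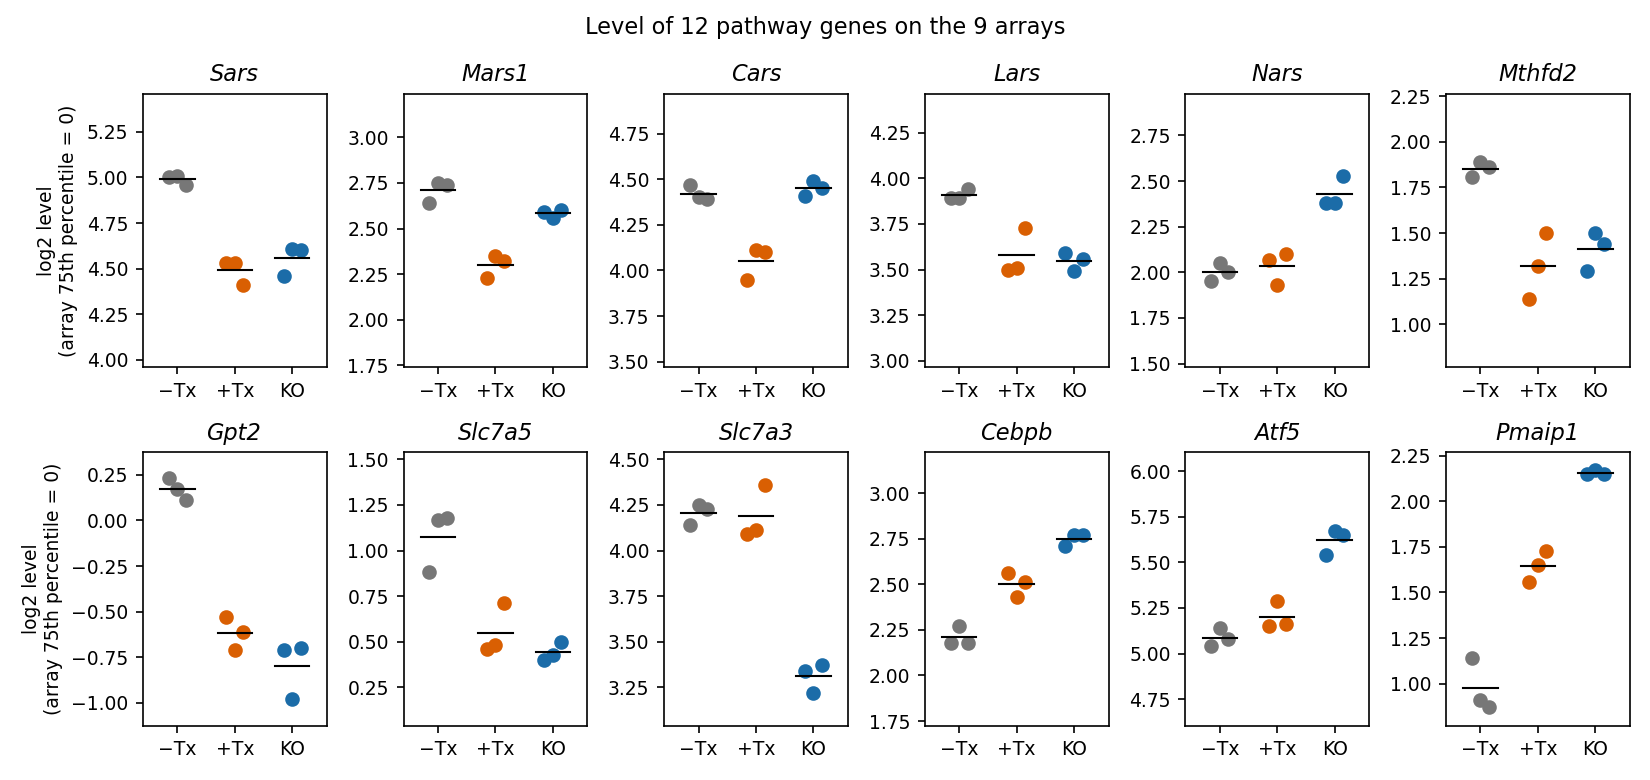
Level of 12 pathway genes named in the text on the 9 arrays (log2 processed signal, 75th percentile of each array at 0; 1 point per array, bars show group means, each panel has its own axis; KO is KO/Y). *Cars* and *Mars1* are lowest in +Tx, *Gpt2* and *Slc7a5* are low in both deleted groups, *Slc7a3* is low in KO/Y, and *Pmaip1* climbs from −Tx to KO/Y.

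Among 12 genes of amino acid and one-carbon synthesis, 1 was higher and 5 were lower in +Tx over −Tx (8.33% and 41.7%). In KO/Y over −Tx 2 were higher and 4 lower (16.7% and 33.3%). In KO/Y over +Tx 1 was higher and 2 lower (8.33% and 16.7%). The shares of all genes were 11.9% and 14.7%, 20.5% and 26.4%, and 12.1% and 14.1%. *Gpt2*, mitochondrial alanine aminotransferase, read 0.23, 0.17 and 0.11 in −Tx, -0.53, -0.71 and -0.61 in +Tx, and -0.71, -0.98 and -0.70 in KO/Y. It fell by 0.79 and 0.97 against −Tx (1.72-fold and 1.95-fold lower, adjusted p = 6e-04 and 5.69e-05). *Mthfd1l*, of mitochondrial folate metabolism, fell by 0.44 and 0.71 (adjusted p = 0.00277 and 6.66e-05), and *Mthfd2*, of the same route, by 0.54 in +Tx (adjusted p = 0.00564). The genes of this list that passed as higher were *Cbs* and *Cth*, which act in transsulfuration, the route to cysteine. *Cbs* was up by 0.52 in +Tx and 0.66 in KO/Y over −Tx (adjusted p = 0.000468 and 3.72e-05), and *Cth* by 0.67 in KO/Y over −Tx and 0.42 over +Tx (adjusted p = 0.000292 and 0.0072). *Cth* in +Tx over −Tx (0.24, adjusted p = 0.0667) and *Cbs* in KO/Y over +Tx (0.14, adjusted p = 0.115) did not pass. *Got1*, cytosolic aspartate aminotransferase, was 0.44 lower in KO/Y than in +Tx (adjusted p = 0.0183).

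Of 8 amino acid transporters tested, 1 was higher and 3 were lower in +Tx over −Tx (12.5% and 37.5%, median -0.12). In KO/Y over −Tx 1 was higher and 5 lower (12.5% and 62.5%, median -0.56). In KO/Y over +Tx 1 was higher and 3 lower (12.5% and 37.5%, median -0.13). Among all genes the shares were 11.9% and 14.7%, 20.5% and 26.4%, and 12.1% and 14.1%. *Slc7a5* and *Slc3a2*, the light and heavy chains of a carrier of large neutral amino acids, fell by 0.53 and 0.34 in +Tx (adjusted p = 0.00749 and 0.00272). *Slc7a3*, a carrier of arginine and lysine, read 4.14, 4.25 and 4.23 in −Tx, 4.09, 4.11 and 4.36 in +Tx, and 3.34, 3.22 and 3.37 in KO/Y. It was 0.90 lower in KO/Y than in −Tx and 0.88 lower than in +Tx (1.86-fold and 1.84-fold, adjusted p = 6.82e-05 and 0.000225). *Slc38a2*, a carrier of small neutral amino acids, was 0.74 and 0.71 lower in the same comparisons (adjusted p = 0.000767 and 0.00233). *Slc7a1*, another carrier of arginine and lysine, was higher by 0.38 in +Tx and 0.62 in KO/Y over −Tx (adjusted p = 0.0296 and 0.00138, and 0.25 and 0.42 with slide as a block, adjusted p = 0.319 and 0.145).

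Of 5 bZIP transcription factors that pair with ATF4, 1 was higher in +Tx over −Tx (20%, beside 11.9% of all genes). In each comparison of KO/Y 3 were higher (60%, beside 20.5% of all genes over −Tx and 12.1% over +Tx). The others, *Cebpg* and *Nfe2l2*, passed in none, with log2 fold changes of -0.22 to -0.07 and -0.13 to -0.06. *Cebpb* read 2.18, 2.27 and 2.18 in −Tx, 2.56, 2.43 and 2.51 in +Tx, and 2.71, 2.77 and 2.77 in KO/Y, in 3 separate steps (0.29 in +Tx and 0.54 in KO/Y over −Tx, adjusted p = 0.00983 and 0.000152). *Atf5*, a close relative of ATF4, was 0.54 higher in KO/Y than in −Tx and 0.42 higher than in +Tx (adjusted p = 0.000284 and 0.00252). *Jdp2*, a repressor that pairs with ATF3 and AP-1 proteins, was 0.48 and 0.37 higher (adjusted p = 0.00109 and 0.00949).

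Of 14 growth, secreted and death outputs tested, 2 were higher and 4 lower in +Tx over −Tx (14.3% and 28.6%). In KO/Y over −Tx 4 were higher and 3 lower (28.6% and 21.4%). In KO/Y over +Tx 4 were higher (28.6%). The shares of all genes were 11.9% and 14.7%, 20.5% and 26.4%, and 12.1% higher in the last. *Pmaip1* encodes NOXA, an activator of apoptosis that p53 also induces. It read 1.14, 0.91 and 0.87 in −Tx, 1.56, 1.65 and 1.73 in +Tx, and 2.15, 2.17 and 2.15 in KO/Y, in 3 groups without overlap. The rise over −Tx was 0.67 in +Tx (1.59-fold, adjusted p = 0.000849) and 1.18 in KO/Y (2.27-fold, adjusted p = 1.24e-05). *Vegfa*, the angiogenic factor, was higher by 0.57 and 0.74 (adjusted p = 0.00128 and 9.89e-05). *Map1lc3b*, of the autophagosome, was 0.59 higher in KO/Y than in −Tx and 0.46 higher than in +Tx (adjusted p = 0.000104 and 0.00111). *Nupr1*, a stress-induced chromatin protein, was 0.44 higher in KO/Y than in +Tx (adjusted p = 0.000861). *Bbc3*, encoding PUMA, another activator of apoptosis, was 0.37 higher in the same comparison (adjusted p = 0.0154) and differed from −Tx by 0.03 in KO/Y (adjusted p = 0.842). *Stc2*, a secreted glycoprotein, fell by 0.40 in +Tx and 0.77 in KO/Y (adjusted p = 0.0406 and 0.000864), and *Bcl2l11*, encoding BIM, fell by 0.47 in +Tx (adjusted p = 0.00339).

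Among the 7 eIF2 kinases and regulators, 0 passed in +Tx over −Tx in limma (3 were lower at an unadjusted p under 0.05). Of all genes, 11.9% were higher and 14.7% lower there. In KO/Y over −Tx 1 was higher and 3 lower (14.3% and 42.9%, beside 20.5% and 26.4% of all genes). The amino acid sensor *Eif2ak4* (GCN2) was 0.47 lower in KO/Y, its activator *Gcn1* 0.33 lower and the haem-regulated kinase *Eif2ak1* 0.40 lower (adjusted p = 0.00293, 0.00538 and 0.0058). *Eif2ak2* (PKR), the kinase that binds double-stranded RNA, was 0.62 ± 0.197 higher (adjusted p = 0.0307), with overlapping groups (-0.19, -0.08 and 0.44 in −Tx, and 0.71, 0.91 and 0.40 in KO/Y). *Gcn1* of the 7 passed in KO/Y over −Tx with slide as a block (adjusted p = 0.0471). *Impact*, an inhibitor of GCN2 activation, was 0.24 higher in KO/Y than in +Tx (adjusted p = 0.0428). Of 9 genes for eIF2, eIF2B and the constitutive phosphatase subunit, 2 were lower in +Tx and 3 in KO/Y over −Tx. These are 22.2% and 33.3%, beside 14.7% and 26.4% of all genes. *Eif2s3x*, the X-linked gamma subunit of eIF2, fell by 0.46 in KO/Y (adjusted p = 0.000754), *Eif2b2* by 0.29 (adjusted p = 0.0141), and *Eif2b4* by 0.25 in +Tx (adjusted p = 0.0235). The adjusted p of *Eif2s3x* was 0.0503 with slide as a block.

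A separate branch of the unfolded protein response runs through ATF6 and XBP1. Of its 18 genes, 2 were higher in +Tx over −Tx, 7 in KO/Y over −Tx and 4 in KO/Y over +Tx. The shares were 11.1%, 38.9% and 22.2%, beside 11.9%, 20.5% and 12.1% of all genes, so the first was near that of all genes. In limma 0 of the 18 were lower (also 0 at an unadjusted p under 0.05), beside 14.7%, 26.4% and 14.1% of all genes. *Dnajb9*, a chaperone of the endoplasmic reticulum and a target of XBP1, was 0.68 higher in KO/Y than in −Tx (adjusted p = 0.000452), and *Pdia4*, a disulfide isomerase, 0.48 higher (adjusted p = 0.0028). *Creld2*, a secreted target of ATF6, was 0.42 higher (adjusted p = 0.00026), and *Atf6* itself 0.94 higher (adjusted p = 9.17e-05). *Atf6* was dim, though detected on every array (-3.55, -3.64 and -3.25 in −Tx, and -2.52, -2.59 and -2.52 in KO/Y). Its change with normexp is not given here. *Hspa5*, the main chaperone of the compartment, did not pass (0.20, adjusted p = 0.0688). Of the 18 genes, 3 passed as higher in KO/Y over −Tx with slide as a block.

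*Atf3* also responds as an immediate early gene to growth factor signals. Of 12 such genes, 6 were higher and 1 lower in +Tx over −Tx (50% and 8.33%). In KO/Y over −Tx 3 were higher and 3 lower (25% and 25%). In KO/Y over +Tx 6 were lower (50%). Among all genes the shares were 11.9% and 14.7%, 20.5% and 26.4%, and 14.1% lower in the last. *Egr1*, a zinc finger factor downstream of ERK signalling, read 2.74, 2.78 and 2.62 in −Tx, 3.24, 3.22 and 3.32 in +Tx, and 1.48, 1.38 and 1.42 in KO/Y. It was therefore highest in +Tx and lowest in KO/Y, unlike *Atf3* (0.54 in +Tx and -1.29 in KO/Y over −Tx, adjusted p = 0.000793 and 1.89e-06). *Ier2*, another early response gene, was 1.25 lower in KO/Y than in −Tx (adjusted p = 2.54e-05), and *Fosl1*, an AP-1 subunit, was 0.61 and 0.59 higher in +Tx and KO/Y (adjusted p = 0.00203 and 0.000802). *Fos* was 0.37 higher in +Tx than in −Tx and 0.70 lower in KO/Y than in +Tx (adjusted p = 0.0296 and 0.00152).

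The 5 named genes whose levels over the 9 arrays were most like those of *Atf3* were *Lat2*, *Gm11564*, *Spopfm2*, *Ninj2* and *Cacna1s*, with Pearson's r of 0.996, 0.995, 0.994, 0.993 and 0.992. Their mean levels rose in the same order of groups, for example -4.70, -2.71 and -1.47 for *Lat2*, an adaptor of immune receptor signalling, and -1.37, 0.78 and 2.21 for *Cacna1s*, a calcium channel subunit. The coefficients follow mostly from 3 group means, and 418 of 15339 genes compared reached an r over 0.95.

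Markers of ES cells and of other cells moved with the deleted groups. The summed scaled signal of the 6 ES cell markers was 636 to 668 in −Tx, 572 to 621 in +Tx and 488 to 603 in KO/Y. Such sums mostly follow their brightest signals, here that of *Dppa5a*, which did not pass in KO/Y over −Tx (-0.12, adjusted p = 0.385). In that comparison 3 of the 6 were lower (*Esrrb* -0.82, *Sox2* -0.52 and *Zfp42* -0.27, adjusted p = 8.43e-06, 0.000623 and 0.0106). The summed scaled signal of 5 2-cell markers was 9.11 to 10.8 in −Tx, 98.3 to 115 in +Tx and 161 to 183 in KO/Y. That of 10 primitive endoderm markers was 9.17 to 9.36, 12.4 to 14.9 and 39.4 to 59.6, that of 6 trophectoderm markers 5.44 to 5.98, 4.82 to 5.16 and 17.7 to 19.2, and that of 12 fibroblast markers 270 to 286, 330 to 353 and 395 to 448. *Sox17* was detected in KO/Y and on no −Tx or +Tx array. *Hand1* was detected on every +Tx and KO/Y array and on no −Tx array, and *Elf5* in no group. The trophectoderm sum mostly follows *Krt8* and *Krt18*, which fell by 0.40 and 0.28 in +Tx over −Tx, whereas *Hand1* rose there. In +Tx over −Tx, 4 primitive endoderm markers were higher and 2 lower, 1 trophectoderm marker was higher and 2 lower, and 7 fibroblast and 5 2-cell markers were higher. In KO/Y over −Tx, all 10 primitive endoderm, 6 trophectoderm, 12 fibroblast and 5 2-cell markers tested were higher. Of all genes, 11.9% were higher and 14.7% lower in +Tx over −Tx, and 20.5% were higher in KO/Y over −Tx. All 12 fibroblast markers were detected on every array. The paper's ES cells were grown with or without mouse embryonic fibroblast feeders, and which applied to the arrays is not given in the sources used here. Fibroblast signal from feeders and from differentiated cells cannot be told apart. The part of feeders and of the other cells in the levels of *Atf3* and the other stress response genes was not tested.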

How the data were processed

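RNA of ES cells was hybridised to SurePrint G3 Mouse GE 8x60K arrays with Cy3. The deposited intensity of each spot is the processed signal that the authors made with Agilent Feature Extraction 10.7.3.1, on a linear scale after background subtraction. A deposited table of the series holds 1 signal column per group, combined by the authors over 3 arrays with NIA Array Analysis Software, whose settings the sources used here do not state. It was used as an alternative. The paper describes biological triplicates. Arrays are numbered by slide position, which only names them. Whether they came from separate cultures is not stated beyond this, so p-values measure the spread between these arrays.

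The log2 of each intensity was taken relative to the 75th percentile of its array. Outlier spots (117 to 178 per array, 0 for the stress response genes) were dropped, and 0 spots were saturated. A probe was kept if some group had it well above background on all 3 arrays (31191 probes, including all 13 of the members). The brightest kept probe gave the gene's value. In R 4.3.3, 22443 genes were fitted with limma 3.58.1 (lmFit, eBayes) over all 9 arrays, for 3 comparisons, with Benjamini-Hochberg adjustment over all genes. Second probes were tested in the same way over all kept probes. The script was tested on simulated data. For a group with no array well above background, the fold sets the mean of the bright group against a floor for each dim array. The floor is the lowest detected signal or the probe's own, whichever was higher, and the fold is no strict minimum.

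The members and gene lists were chosen with earlier results of these data known. Named were all members, up to 4 genes with the largest change among those that passed in each list and comparison, the 5 genes most like *Atf3*, *Nr0b1*, and, chosen after their values were seen, *Hspa5*. Genes were named through RefSeq accessions where these matched and otherwise as in the file. Probe coordinates are mm9, and promoter sequences are RefSeq's on GRCm38.p6. Alternatives were normexp (offset 50), quantile normalization, another scaling, other filters, slide as a block or within a slide, an intensity trend, the mean of probes, outliers kept, fits of 6 arrays, each array left out, and the authors' table. The number of arrays limits the precision.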

Additional observations from a re-analysis of the deposited data

How the results depend on the processing

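No paired analysis was possible because the arrays carry no replicate number that pairs them across groups. Over the alternatives, 498 values of single stress response genes counted as the same, 69 kept the direction and lost the call, 4 gained one and 7 reversed. The same meant the same direction and side of the threshold, except in the authors' table. That table allows no test, so its 28 values among the 498 were judged by size alone. *Atf3* over −Tx is left out here and below. The authors' table of the series gave all 28 such values within the spread between arrays. The reversed values were near 0: *Ppp1r15a* in +Tx over −Tx was 0.065 with quantile normalization, 0.017 with slide as a block and 0.017 within slide 1, and -0.015 to 0.013 with 1 array left out. *Atf4* in KO/Y over +Tx was -0.04 to 0.032 with 1 array left out (below 0 without +Tx array 2 or KO/Y array 3).

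Of the members, 4 were lower in +Tx over −Tx, a count not followed below. The counts followed are 1 higher in +Tx over −Tx, 3 higher and 4 lower in KO/Y over −Tx, and 6 higher and 1 lower in KO/Y over +Tx. In the same order the counts were 0, 3, 2, 3 and 0 with no filter on dim probes, and 0, 0, 1, 3 and 0 with slide as a block. With the 6 arrays compared alone, 3 were higher and 0 lower in KO/Y over +Tx. Within a slide, 0 were higher in +Tx over −Tx, where 1 +Tx array stands for the group, and 2 were higher and 0 lower in KO/Y over +Tx. KO/Y over −Tx within 1 slide could not be run. With 1 array left out, 0 to 1 were higher in +Tx over −Tx, 2 to 5 lower in KO/Y over −Tx, and 3 to 5 higher and 0 to 1 lower in KO/Y over +Tx. *Atf3*, the 1 member over 2-fold in KO/Y over +Tx, was under it with normexp, and the filter for probes well above background on all 9 arrays removed it, which left 0. The cause of the other changes was not tested.

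Of the 68 other pathway genes, 5 were higher and 21 lower in +Tx over −Tx, 21 were lower in KO/Y over −Tx (0 over 2-fold), and 17 were higher and 6 lower in KO/Y over +Tx. The 17 became 10 with no filter and 10 with the 6 arrays compared alone. With slide as a block, 8 were lower in +Tx over −Tx and 13 in KO/Y over −Tx (1 over 2-fold). Within a slide, 2 were higher and 5 lower in +Tx over −Tx, again with 1 +Tx array, and 3 higher and 2 lower in KO/Y over +Tx. With 1 array left out, 13 to 23 were lower in +Tx over −Tx, 10 to 17 higher and 3 to 6 lower in KO/Y over +Tx, and 0 to 1 lower by over 2-fold in KO/Y over −Tx. The 13 came without −Tx array 3, the 10 without +Tx array 2 and the 3 without KO/Y array 2. The share of all genes that passed in each alternative is not given here. These counts and those of the members are therefore not set beside it. *Atf3* was not well above background in −Tx, so its folds over −Tx are approximate.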
